A study of Mus musculus with 6 samples.

Results

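The pyruvate dehydrogenase complex and the enzymes that switch it off and on were followed in brains of mouse embryos labelled as Mfsd7c knockouts, through 10 named genes of a count table with 52459 gene symbols. The genes were chosen by symbol: the 4 kinases Pdk1, Pdk2, Pdk3 and Pdk4, the phosphatase Pdp1, and the 5 genes Pdha1, Pdhb, Dlat, Dld and Pdhx for parts of the complex. All 10 were in the table and all 10 passed the filter on low counts, which left 19565 genes for testing. In the knockout brains Pdk1 was 2.94-fold as abundant as in wild-type brains, while the other 9 genes lay between 0.914-fold and 1.23-fold and did not pass the test.

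The complex sits in the mitochondrial matrix and turns pyruvate, the end product of glycolysis, into acetyl-CoA, which feeds the citric acid cycle. Pyruvate dehydrogenase kinases phosphorylate the alpha subunit of its first enzyme and so inactivate it, and the phosphatase removes those phosphates. Pdk1 is a known target of hypoxia-inducible factor, and the brain, which depends on glucose oxidation, is the organ most affected in human inherited deficiency of the complex.

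The libraries were made from total RNA of whole brains of C57BL/6 embryos at E14.5. The KO group held 3 libraries from Mfsd7c-/- knock out embryos, and the WT group 3 libraries from wild type embryos. Mfsd7c, now named Flvcr2, encodes a membrane transporter. The labels do not say how the allele was made, which part of the gene it removes or whether embryos shared a litter. Each p-value reflects the spread of these 6 libraries, which may be partly technical. In WT it also spans different embryos, since replicate 2 was female and replicates 1 and 3 were male by their Xist and Y-linked counts.

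Totals ran from 43784619 to 50549673 counts a library. Mfsd7c itself had 119, 129 and 130 counts in KO replicates 1, 2 and 3, against 206, 291 and 259 in WT replicates 1, 2 and 3. Its transcript was thus lower in every KO library but still detected at 2.54 to 2.76 CPM in KO and 4.64 to 5.79 CPM in WT brains, and since the deleted part is not stated, these counts do not check the loss of the gene. All 8 brain markers that were checked were detected, with summed levels of 5871 to 6511 CPM (counts scaled to the size of the library) in KO brains and 5785 to 6718 CPM in WT brains. The libraries also differed in ways not shared by all members of a group. WT replicates 2 and 3 were rich in caudal Hox transcripts, KO replicate 1 and WT replicate 1 in the epidermal keratin Krt5, and WT replicate 2 alone was female by its Xist and Y-linked counts. Embryonic beta-globins made up 23.6% of beta-globin counts in KO replicate 2 and 23.3% and 26.5% in WT replicates 2 and 3, against 2.80% and 5.03% in KO replicates 1 and 3 and 4.49% in WT replicate 1.

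The promoter of Pdk1 is shown because Pdk1 is the gene that changed, and that of Pdk3 because Pdk3 is the kinase that came next in size and did not pass the test. Both run 5′ to 3′ from 250 bases before to 50 bases after the annotated start, as given by RefSeq on GRCm38.p6. Pdk1 and Pdk2 have 2 such windows each, and the one nearest the gene start in GENCODE is used. The Pdk1 window is chr2:71872974-71873273 on the plus strand, and the Pdk3 window is chrX:93832101-93832400 on the minus strand. Capitals mark each ACGTG or GCGTG, the core letters of the hypoxia response element, and their reverse complements CACGT and CACGC.
Pdk1: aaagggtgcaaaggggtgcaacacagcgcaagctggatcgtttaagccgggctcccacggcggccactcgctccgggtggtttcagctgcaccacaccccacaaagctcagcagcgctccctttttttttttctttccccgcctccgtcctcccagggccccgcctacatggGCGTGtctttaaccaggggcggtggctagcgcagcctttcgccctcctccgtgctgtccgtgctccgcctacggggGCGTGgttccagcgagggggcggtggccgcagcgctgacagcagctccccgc
Pdk3: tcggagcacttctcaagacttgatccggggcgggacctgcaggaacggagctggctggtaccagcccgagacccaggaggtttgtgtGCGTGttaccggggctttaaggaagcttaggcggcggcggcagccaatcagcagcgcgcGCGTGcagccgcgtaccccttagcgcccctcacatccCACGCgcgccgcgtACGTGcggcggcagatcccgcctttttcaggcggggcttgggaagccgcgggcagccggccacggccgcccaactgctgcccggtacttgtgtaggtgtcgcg
The Pdk1 window held 2 GCGTG and 0 ACGTG, starting 78 and 2 bases before the annotated start. The Pdk3 window held 4 matches, 3 GCGTG and 1 ACGTG. Promoter windows were found for 9 of the 10 genes, and 7 of those 9 held at least 1 match, Dlat and Dld being the exceptions. Of 32851 mouse promoter windows of the same length 43.8% held at least 1 match, and of the 9690 with a GC content of 60% or more 69.2% did. At least 1 match to these letters is thus common in such windows. At least 2 were held by 20.6% of all windows and 39.8% of those with the high GC content. At least 4 were held by 3.86% and 9.47%. Pdha1 had 4 matches, the same number as Pdk3, and whether any match acts in these brains was not tested. The 2 matches of Pdk2 overlap, being the same letters read on both strands.

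Of the 4 kinase transcripts, Pdk1 rose. Pdk1 (ENSMUSG00000006494.11, chromosome 2 from 71873224 to 71903858 on GRCm38) encodes the kinase isoform known for its induction by low oxygen. Its level was 127, 104 and 128.5 CPM in KO replicates 1, 2 and 3, against 46.7, 39.7 and 35.7 CPM in WT replicates 1, 2 and 3. Each KO library lay above every WT library, and the lowest KO value was more than 2-fold the highest WT value. The means were 119.7 ± 13.8 CPM in KO and 40.7 ± 5.56 CPM in WT brains (SD, n = 3 each). The log2 fold change was 1.56 (SE 0.115, 95% interval 1.29 to 1.82, adjusted p = 0.00094 by the quasi-likelihood test of edgeR), which placed Pdk1 11th by p-value among 19565 genes. Of those genes 0.475% had a larger change in either direction. Over all tested genes 0.659% passed the threshold, a Benjamini-Hochberg adjusted p under 0.05, with 0.624% higher and 0.0358% lower in KO. Of the 10 members 1 was higher and 0 were lower.

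The Pdk1 difference was present on both sides of the beta-globin division. Among libraries with a low embryonic share, KO replicates 1 and 3 had 127 and 128.5 CPM and WT replicate 1 had 46.7 CPM. Among those with a high share, KO replicate 2 had 104 CPM and WT replicates 2 and 3 had 39.7 and 35.7 CPM. Within each genotype the libraries with a high embryonic share had the lower Pdk1 levels. With a term for this division the log2 fold change was 1.46 (SE 0.0543, edgeR adjusted p = 8.45e-08). Without the Hox-rich WT replicates 2 and 3 it was 1.36 (SE 0.141, edgeR adjusted p = 0.0304), with 1 WT library left and assumed to vary like the others. The authors' deposited table gave 1.56 (SE 0.121, adjusted p = 1.41e-34) for Pdk1. Of the 20564 genes with an adjusted p in the authors' deposited table, 1.5% had one under 0.05, as did 1 of the 10 members. The lowest adjusted p among the other 9 members was 0.228 for Pdk3.

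Markers of some other cell types also differed between the groups. Of 6 endothelial markers 2 were higher in KO, Pecam1 and Emcn. The summed level of the 6 was 247 to 274 CPM in KO and 174 to 214 CPM in WT brains. Pecam1 itself had a mean of 64.7 CPM in KO and 32.3 CPM in WT. Cdh5, Tie1, Erg and Kdr did not pass in the edgeR test, with log2 fold changes of 0.19, 0.18, 0.15 and 0.15. Of 5 mural cell markers 1 was lower in KO, Rgs5, and the sums were 118 to 127 CPM in KO and 176 to 198 CPM in WT. Rgs5 itself had a mean of 39.3 CPM in KO and 95.5 CPM in WT, so the sums largely follow that gene. The log2 fold changes of the others were -0.28 for Abcc9, -0.17 for Kcnj8, -0.14 for Pdgfrb and 0.073 for Cspg4. Of 5 caudal Hox genes 2 had enough counts to test and 0 passed (edgeR; both had an unadjusted p under 0.05), with sums of 0.0591 to 0.997 CPM in KO and 1.69 to 107 CPM in WT. Erythroid sums overlapped, at 1484 to 3486 CPM in KO and 971 to 2404 CPM in WT, as did epidermal sums, at 10.6 to 248 CPM in KO and 4.53 to 201 CPM in WT. Microglial sums were 65.5 to 82.5 CPM in KO and 66.5 to 70.4 CPM in WT, fibroblast sums 606 to 819 CPM in KO and 506 to 1255 CPM in WT, and skeletal muscle sums 4.403 to 10.8 CPM in KO and 5.88 to 27.0 CPM in WT. None of the markers on these lists was at 0 in all libraries. In whole-brain RNA, more cells of a type and more RNA per cell cannot be told apart, and the part of these markers in the Pdk1 result was not tested.

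**Figure D1:**
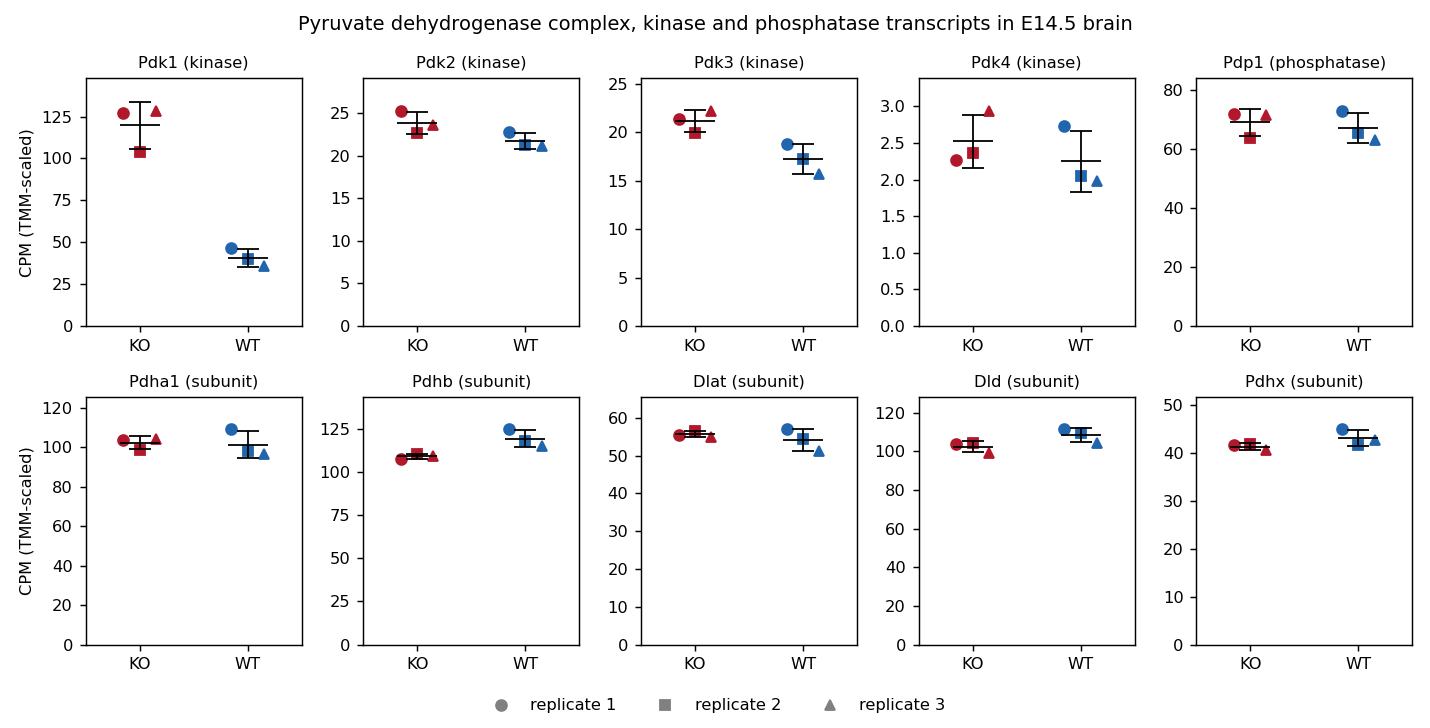
Level of each of the 10 transcripts in CPM (y axis, starting at 0, a scale of its own for each gene) in KO and WT brains. Points are libraries, with the shape giving the replicate number, the long bar is the mean and the whiskers are ± SD (n = 3 each). For Pdk1 the KO libraries lie at 104 to 128.5 CPM and the WT libraries at 35.7 to 46.7 CPM, while the other panels show differences of at most 1.23-fold.

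The other kinases were higher by smaller amounts and did not pass. Pdk3 (ENSMUSG00000035232.8) lies on the X chromosome from 93764607 to 93832201. It had 21.4, 19.9 and 22.2 CPM in KO replicates 1, 2 and 3, against 18.8, 17.3 and 15.7 CPM in WT replicates 1, 2 and 3. The groups did not overlap, and the gap between the lowest KO and the highest WT library was small. Its log2 fold change was 0.30 (SE 0.0918, 95% interval 0.087 to 0.51), with an unadjusted p of 0.011 and an adjusted p of 0.382 in the edgeR quasi-likelihood test. WT replicate 2, the female library, lay between the other WT libraries, and without it the log2 fold change of this X-linked gene was also 0.30.

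Pdk2 (ENSMUSG00000038967.13), the most widely expressed isoform in mammalian tissues, lies on chromosome 11 from 95026258 to 95041354. It had 25.3, 22.7 and 23.6 CPM in the KO replicates and 22.8, 21.2 and 21.2 CPM in the WT replicates. KO replicate 2 fell just below WT replicate 1. The log2 fold change was 0.14 (95% interval -0.035 to 0.31, edgeR adjusted p = 0.702), an interval that reaches 23.8% above WT.

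Pdk4 (ENSMUSG00000019577.6), the isoform known for induction by fasting in muscle and liver, lies on chromosome 6 from 5483351 to 5496309. It was scarce, with 98, 120 and 141 counts in KO replicates 1, 2 and 3 and 121, 103 and 99 counts in WT replicates 1, 2 and 3. Its levels were 2.27, 2.37 and 2.94 CPM in KO and 2.73, 2.05 and 1.98 CPM in WT brains, with the groups overlapping. The 95% interval of its log2 fold change, -0.29 to 0.63 around 0.17, was the widest of the 10 genes (edgeR adjusted p = 0.878), and it spans levels from 18.3% lower to 54.7% higher in KO.

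**Figure D2:**
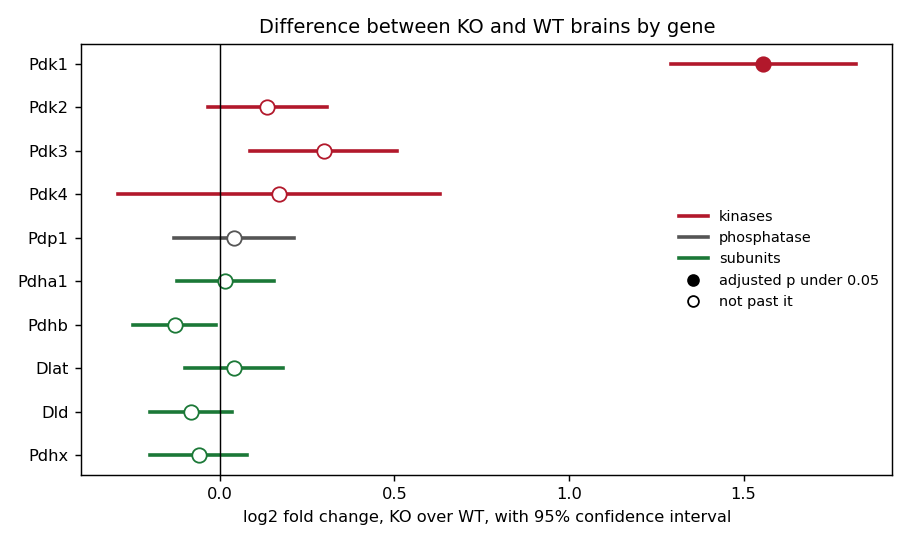
Log2 fold change of KO over WT (x axis) for each gene (y axis), with 95% confidence intervals from the edgeR fit and filled points for an adjusted p under 0.05. Pdk1 at 1.56 stands apart with an interval of 1.29 to 1.82, and the intervals of the other 9 genes end at or below 0.63.

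The phosphatase transcript did not differ detectably. Pdp1 (ENSMUSG00000049225.14, chromosome 4 from 11958184 to 11966452) encodes the catalytic subunit of the phosphatase that reactivates the complex. It had 71.8, 63.8 and 71.5 CPM in KO replicates 1, 2 and 3, against 72.9, 65.5 and 63.0 CPM in WT replicates 1, 2 and 3. The groups overlapped over nearly their whole range. Its log2 fold change was 0.040 (SE 0.0751, edgeR adjusted p = 0.928), and the 95% interval ran from 8.67% lower to 15.8% higher in KO.

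None of the 5 subunit genes passed in either direction (edgeR quasi-likelihood test), 1 had an unadjusted p under 0.05, and DESeq2 and limma-voom also called 0 of the 5. Their median log2 fold change was -0.061, beside -0.0099 over all 19565 genes. The 4 kinases had a median of 0.23.

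Pdha1 and Pdhb encode the alpha and beta subunits of pyruvate dehydrogenase, the enzyme that decarboxylates pyruvate, and the alpha subunit carries the serines that the kinases phosphorylate. Pdha1 (ENSMUSG00000031299.10, X chromosome from 160122209 to 160138413) had 104, 98.7 and 104 CPM in KO replicates 1, 2 and 3, against 109, 98.0 and 96.6 CPM in WT replicates 1, 2 and 3. The groups overlapped, the log2 fold change was 0.016, and the 95% interval ran from 8.24% lower to 11.4% higher in KO (edgeR adjusted p = 0.969). The female library, WT replicate 2, lay between the 2 male WT libraries. Exons of Pdha1 share 603 bases with Map3k15 on the opposite strand, and without a stated strand setting reads there cannot be assigned to 1 of the 2 genes.

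Pdhb (ENSMUSG00000021748.9, chromosome 14 from 8165996 to 8173025) had 107, 110.5 and 109 CPM in the KO replicates, against 125, 118 and 115 CPM in the WT replicates. Each KO library lay below each WT library. The log2 fold change was -0.13 (SE 0.0518, 95% interval -0.25 to -0.011), with an unadjusted p of 0.0351 and an adjusted p of 0.559 in the edgeR test. The level of Pdhb is uncertain because 11.4% of its distinct 50-base stretches also occur in transcripts of other annotated genes, nearly all of them in the predicted gene Gm6123.

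Dlat encodes the core acetyltransferase of the complex, Pdhx the protein that anchors the third enzyme to that core, and Dld the third enzyme itself, which is shared with related complexes. Dlat (ENSMUSG00000000168.9, chromosome 9 from 50634633 to 50659780) had 55.6, 56.6 and 54.9 CPM in KO and 57.0, 54.3 and 51.2 CPM in WT replicates, overlapping, with a log2 fold change of 0.040 (95% interval -0.099 to 0.18). Pdhx (ENSMUSG00000010914.10, chromosome 2 from 103021075 to 103073513) had 41.5, 41.8 and 40.5 CPM in KO and 44.9, 41.6 and 42.7 CPM in WT replicates, overlapping, with a log2 fold change of -0.061 (95% interval -0.20 to 0.078).

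Dld (ENSMUSG00000020664.10, chromosome 12 from 31331277 to 31351453) had 103.7, 104.5 and 99.2 CPM in KO replicates, against 111.5, 109.6 and 104.6 CPM in WT replicates. The groups did not overlap, but KO replicate 2 and WT replicate 3 were almost equal. Its log2 fold change was -0.083 (SE 0.0512, edgeR adjusted p = 0.738).

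Counting both directions, 4 of the 10 genes did not overlap between the groups, beside 14.4% of all tested genes. Pdk1 and Pdk3 were higher in every KO library (7.84% of all genes) and Pdhb and Dld lower in every KO library (6.58% of all genes). The SDs of the subunit genes were 1.47% to 3.07% of the mean in KO and 3.30% to 6.80% in WT brains, against 11.6% and 13.7% for Pdk1.

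Setting Pdk1 against the other members removes the scaling of the libraries, because both counts of a ratio come from the same library. The log2 ratio of Pdk1 to Pdp1 counts was 0.82, 0.70 and 0.84 in KO replicates 1, 2 and 3, against -0.64, -0.72 and -0.82 in WT replicates 1, 2 and 3. Pdk1 therefore had more counts than Pdp1 in every KO library and fewer in every WT library. The ratio of Pdk1 to Pdha1 had a mean of 0.22 ± 0.13 in KO and -1.32 ± 0.11 in WT brains on the log2 scale (SD, n = 3 each). Over all 9 partners the difference between the groups ran from 1.26 against Pdk3 to 1.69 against Pdhb, a 2.40-fold to 3.22-fold shift. Each of the 9 ratios was higher in all 3 KO libraries than in any WT library (two-sided exact permutation test, p = 0.1, the smallest 3 against 3 allows), and since every ratio contains Pdk1 they are not independent.

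Levels of different genes can be compared per length, and dividing CPM by the summed exon length of each gene changed the order of the kinases between the groups. In KO brains Pdk1 led with 15.4 ± 1.78 CPM per kb, followed by Pdk3 with 8.27 ± 0.460, Pdk2 with 7.55 ± 0.412 and Pdk4 with 0.720 ± 0.104 CPM per kb (SD, n = 3). In WT brains Pdk2 had 6.87 ± 0.286, Pdk3 6.73 ± 0.609, Pdk1 5.23 ± 0.715 and Pdk4 0.641 ± 0.118 CPM per kb (SD, n = 3), with Pdk2 and Pdk3 within their spread of each other. Pdk1 made up 49.0%, 46.0% and 49.3% of the summed kinase level in KO replicates 1, 2 and 3, against 28.2%, 26.7% and 25.5% in WT replicates 1, 2 and 3. The shares of Pdk2, Pdk3 and Pdk4 were smaller in each KO library than in each WT library, because the sum had grown. Their own mean levels were not lower in KO.

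The summed kinase level was 33.3, 29.0 and 33.5 CPM per kb in KO replicates 1, 2 and 3, against 21.3, 19.2 and 18.0 CPM per kb in WT replicates 1, 2 and 3. Without Pdk1 the other 3 kinases summed to 15.6 to 17.0 CPM per kb in KO and 13.4 to 15.3 CPM per kb in WT brains. Per unit of Pdp1 transcript there was 2.08 ± 0.0331 of kinase transcript in KO and 1.31 ± 0.0185 in WT brains (SD, n = 3 each). The second phosphatase gene Pdp2, at 26.0 CPM in KO and 26.1 CPM in WT brains, was left out of this balance. Pdha1 encodes the subunit that the kinases phosphorylate. Per unit of Pdha1 transcript there was 1.16 ± 0.0586 of kinase transcript in KO and 0.718 ± 0.0204 in WT brains (SD, n = 3 each). These are balances of transcripts, and neither protein nor phosphorylation was measured.

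The 5 subunit genes summed to 104.7 to 105.7 CPM per kb in the KO libraries and 105.4 to 114.9 CPM per kb in the WT libraries. Per length, Pdhb stood at 1.03 ± 0.0449 times Pdha1 in KO and 1.14 ± 0.0310 times in WT brains (SD, n = 3 each), without overlap between the groups. Dlat stood at 0.416 ± 0.0192 times Pdha1 in KO and 0.409 ± 0.0128 times in WT brains. The absolute balances depend on the length used. With the longest coding transcript of each gene in place of all its exons, Pdhb was at 72.0 ± 1.06 CPM per kb in KO and 78.8 ± 3.29 in WT brains while Pdha1 was at 35.9 ± 1.10 CPM per kb in KO and 35.6 ± 2.42 in WT brains, so the ratio of the pair changes with the length. With either length the means ran in the order Pdhb, Dld, Pdha1 from the highest in both groups, and Dlat and Pdhx changed places. By exon length Pdhb, Dld and Pdha1 were within their spread in KO brains, at 28.2 ± 0.414, 27.8 ± 0.782 and 27.4 ± 0.843 CPM per kb (SD, n = 3). Pdk1 led the kinases in KO brains with that length too, at 23.1 ± 2.67 CPM per kb, and Pdk2 in WT brains, at 9.67 ± 0.403 CPM per kb, where Pdk3 with 8.15 ± 0.738 and Pdk1 with 7.85 ± 1.07 CPM per kb were within their spread.

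**Figure D3:**
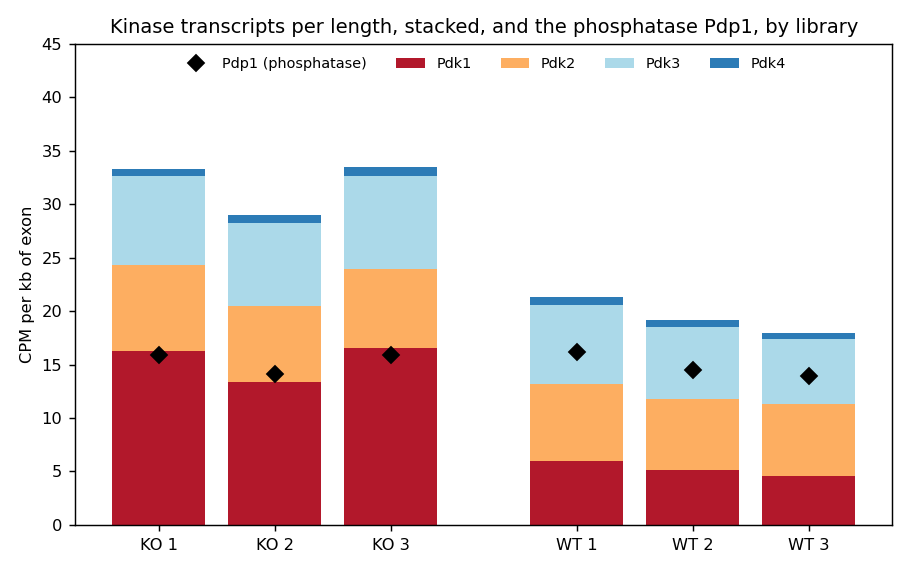
Kinase transcript levels in CPM per kb of exon (y axis) for each library (x axis), stacked by gene, with the phosphatase Pdp1 as a diamond on the same scale. The red Pdk1 segment is 13.3 to 16.5 CPM per kb in the KO libraries and 4.58 to 6.00 in the WT libraries, while Pdp1 stays between 14.0 and 16.2 in all 6.

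Other genes around the complex were described from lists of related enzymes. Of 13 genes for the supply and fates of pyruvate, 3 rose and 0 fell in KO (edgeR, median log2 fold change 0.084). Over all tested genes 0.624% were higher and 0.0358% lower. The list was chosen with earlier results of these data known, so its count may follow partly from that choice. Slc16a3, the plasma membrane transporter that exports lactate, had 42.8, 35.8 and 54.5 CPM in KO replicates 1, 2 and 3, against 6.81, 4.95 and 4.67 CPM in WT replicates 1, 2 and 3, which is 3.02 higher on the log2 scale (SE 0.195, edgeR adjusted p = 0.000854). Ldha, the lactate dehydrogenase subunit that favours making lactate from pyruvate, rose to 582 ± 91.7 CPM in KO, against 238 ± 29.0 CPM in WT brains (SD, n = 3 each; log2 fold change 1.29). Pkm, the pyruvate kinase that makes pyruvate, rose to 1101 ± 55.6 CPM in KO, against 833 ± 24.3 CPM in WT brains (SD, n = 3 each; log2 fold change 0.40, edgeR adjusted p = 0.0372).

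Mpc1, a subunit of the carrier that brings pyruvate into mitochondria, had the lowest log2 fold change of that list at -0.16 and did not pass (edgeR adjusted p = 0.723). The Pkm call was lost without any 1 of KO replicates 1, 2 or 3 or WT replicates 2 or 3 (adjusted p = 0.227, 0.0594, 0.328, 0.304 and 0.217), and the count of 3 became 0 without both Hox-rich libraries. In that fit, with 1 WT library left, the log2 fold changes were 2.71 for Slc16a3, 1.11 for Ldha and 0.37 for Pkm (edgeR adjusted p = 0.117, 0.191 and 0.359). Slc16a3 and Ldha passed in all 6 fits that left out 1 library.

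In the lists below 0 genes passed in the edgeR test, beside 0.659% of all 19565 genes tested. For lists this short a count of 0 is near that share. Of 16 citric acid cycle genes 0 passed in either direction (edgeR; 1 had an unadjusted p under 0.05, and DESeq2 and limma-voom called 0), with log2 fold changes from -0.16 for Mdh1 to 0.11 for Suclg2. Of 9 genes of the related dehydrogenase complexes, which share Dld or the same architecture, 0 passed and 0 had an unadjusted p under 0.05 (edgeR; DESeq2 called 0), between -0.064 for Bckdha and 0.14 for Ppm1k. Of 7 genes that supply the lipoate and thiamine cofactors of the complex 0 passed and 0 had an unadjusted p under 0.05 (edgeR; DESeq2 called 0), from -0.081 for Lias to 0.60 for the thiamine transporter Slc19a3, which was scarce at 0.953 ± 0.248 CPM in KO and 0.630 ± 0.0283 CPM in WT brains (SD, n = 3 each).

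The remaining regulators of the complex stood near 0. The second phosphatase gene Pdp2 had a log2 fold change of -0.0074 and the phosphatase regulatory subunit gene Pdpr one of 0.030, and 0 of these 2 passed (edgeR; 0 had an unadjusted p under 0.05, and DESeq2 called 0). Pdha2, the testis-specific form of the alpha subunit, had 0 counts in each of the 6 libraries, which allows up to 3 counts a library.

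Of 11 transcription factors and coactivators known to act on kinase genes, 0 passed in the edgeR test, 3 had an unadjusted p under 0.05 and DESeq2 called 1, Foxo3. Foxo3, a forkhead factor, was higher by 0.38 on the log2 scale without passing (SE 0.0747, edgeR adjusted p = 0.091), and it passed in 7 of 17 alternatives, 6 of them edgeR fits, with adjusted p-values from 0.00336 to 0.491 over the 17. Hif1a, which is controlled mainly at the level of its protein, encodes an oxygen-regulated subunit of hypoxia-inducible factor. Hif1a was at 140.5 ± 3.86 CPM in KO and 134 ± 2.46 CPM in WT brains (SD, n = 3 each). Its log2 fold change was 0.072 (edgeR adjusted p = 0.77). Epas1, which encodes another such subunit, was at 41.6 ± 0.149 CPM in KO and 34.8 ± 5.08 CPM in WT brains (SD, n = 3 each). The log2 fold change of Epas1 was 0.26, with an unadjusted p of 0.0342 and an adjusted p of 0.554 in the edgeR test. Ppara and Pparg, nuclear receptors of lipid metabolism, marked the ends of the range at 0.42 and -0.57, and both were scarce.

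**Figure D4:**
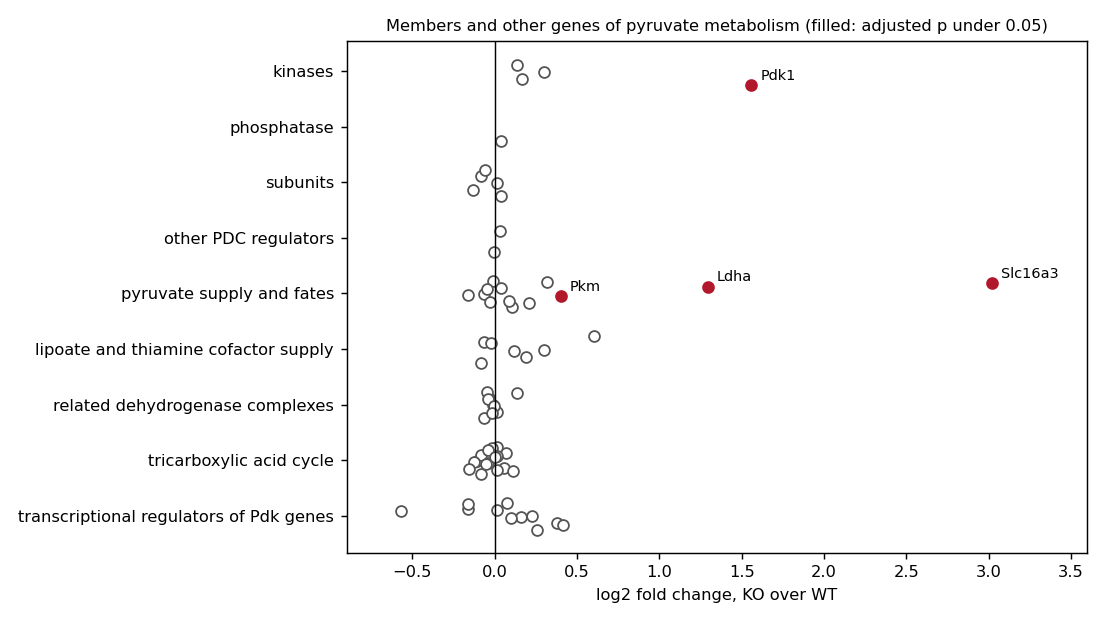
Log2 fold change of KO over WT (x axis) for the 10 genes, in the top 3 rows, and for 6 lists of related genes (y axis), each point a gene and filled where the adjusted p was under 0.05. Pdk1 at 1.56 and the pyruvate and lactate genes Slc16a3 at 3.02, Ldha at 1.29 and Pkm at 0.40 are the filled points, and the citric acid cycle genes lie between -0.16 and 0.11.

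Among the 5 genes whose profile over the 6 libraries was closest to that of Pdk1 were Adgrl4, Eif4ebp1, Loxl2 and Ldha. Closeness was the root mean square difference of log2 CPM after centring each gene on its mean, over 13697 genes with a mean of at least 1 CPM, and it ran from 0.116 for Adgrl4 to 0.145 for Ldha. These 4 genes and Pdk1 had KO replicate 2 as the lowest KO library. The 4 were picked for likeness to Pdk1 over the same 6 libraries, so this shared trait follows largely from the choice. Adgrl4, an adhesion receptor, had 40.4, 33.6 and 42.3 CPM in KO replicates 1, 2 and 3, against 12.2, 12.9 and 11.7 CPM in WT replicates 1, 2 and 3. Among the other 9 members the closest was Pdk3, 418th by this measure, at 0.634.

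**Figure D5:**
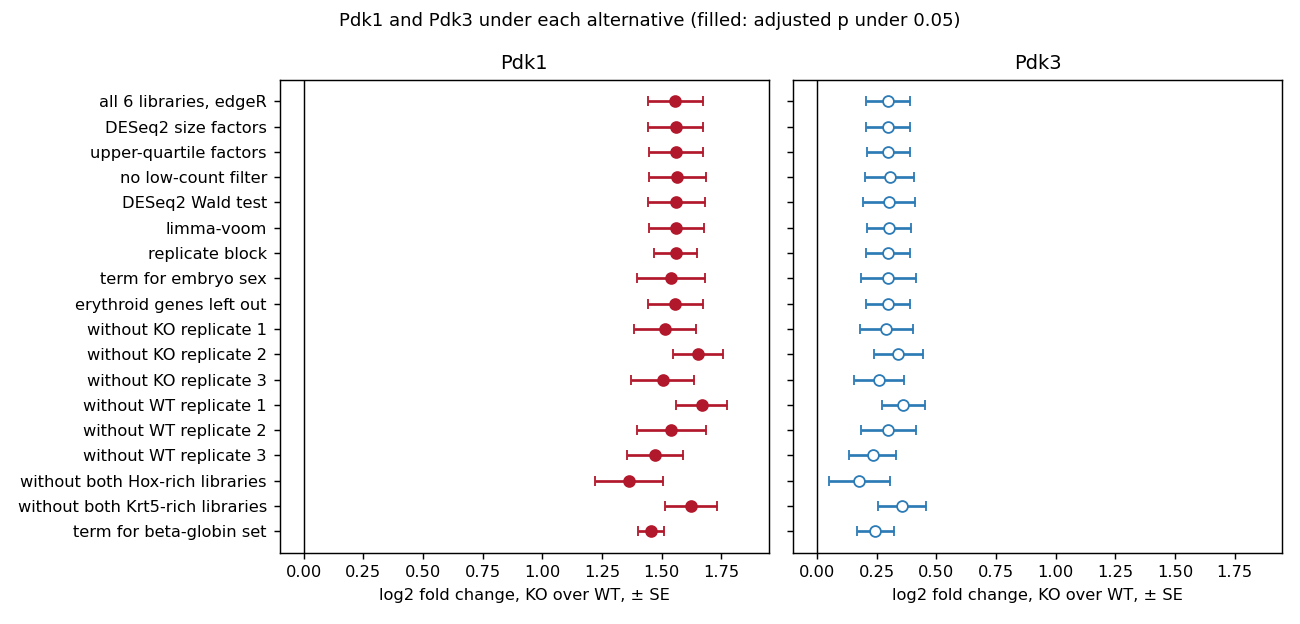
Log2 fold change of KO over WT ± SE (x axis) for Pdk1 and Pdk3 under the fit with all 6 libraries and 17 alternatives (y axis), filled where the adjusted p was under 0.05. Pdk1 stays between 1.36 and 1.67 and is filled throughout, and Pdk3 stays between 0.18 and 0.36 and is filled in none.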

How the data were processed

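The deposited counts are whole, unnormalized reads for each symbol. The submitters' processing notes list STAR 2.5.2a, featureCounts, and DESeq2 1.12.4, and name both mm10 and hg19 without saying what each was used for. Strand setting, annotation and handling of shared reads were not stated. Per the file headers, the authors' own comparison gives a mean signal, the log2 fold change and its error, a test score, and a p-value before and after adjustment.

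Genes were kept by filterByExpr, scaled by TMM and tested with the robust quasi-likelihood test of edgeR 4.0.16 in R 4.3.3, KO against WT, with Benjamini-Hochberg adjustment over all 19565 genes at an FDR of 0.05; the code was tested on simulated data. SE is the log2 fold change divided by the square root of F. Alternatives used limma 3.58.1 and DESeq2 1.42.0. Positions and lengths come from GENCODE M21 on GRCm38.

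The members and lists were chosen with earlier results of these data known. All 10 members are named, with every list gene past the threshold and each list's extremes, and 4 of the 5 genes closest to Pdk1; the other is not reported here. Foxo3, Hif1a, Epas1 and the single marker genes were named after their values were seen. Counting error is small at these depths except for scarce genes such as Pdk4, and the common coefficient of variation between samples was 15.3%.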

Additional observations from a re-analysis of the deposited data

How the results depend on the processing

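Pdk1 kept its direction and its call in all 17 alternative fits, and 0 of the other 9 members passed in any of them; the lowest adjusted p of Pdk3 was 0.0755, without WT replicate 1 (edgeR). The 9 Pdk1 ratios kept their direction in 63 of 63 alternatives, where the smallest exact permutation p possible was 0.2 without 1 library and 0.25 for pairs. The alternatives for pairs could not change direction, since the mean of the paired differences equals the difference of the means. The others all share the Pdk1 counts, so they are not independent. Genes called in all, 129 of 19565, became 211 with no low-count filter, 313 with DESeq2, 37 with a sex term, 20 without the Hox-rich and 459 without the Krt5-rich libraries, 236 with a beta-globin term, and 36 to 388 without single libraries. List genes called, 3, became 0 without the Hox-rich libraries and 2 to 5 without single libraries, alternatives chosen for this count after seeing the data, as was the length below. The causes were not tested.

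Replicate numbers were not shown to pair the samples, since deviations of same-numbered samples correlated at 0.587, 0.310 and 0.0337, and KO replicate 2 and KO replicate 3 correlated best with another number. With the replicate block 282 genes passed, the Pdk1 log2 fold change was 1.56 (SE 0.0886), and 1 of 10 members was called, as without it. Of the list genes named, Foxo3 passed with the block (log2 fold change 0.37, edgeR adjusted p = 0.0269) and not without it.

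With the longest coding transcript as length, Pdk1 was 51.8% of the kinase level in KO and 29.7% in WT, and the kinase sum was 2.70 times Pdp1 in KO and 1.65 times in WT, and 1.24 times Pdha1 in KO and 0.740 times in WT. Small changes that had not passed turned. Without the Hox-rich libraries log2 values were -0.11 for Pdk4, -0.075 for Pdp1, -0.089 for Pdha1, -0.029 for Dlat and 0.020 for Pdp2. With the beta-globin term they were -0.018 for Pdp1 and -0.023 for Pdha1, with the sex term -0.0076 for Pdha1, without the Krt5-rich libraries -0.0089 for Pdpr, and with no filter 0.00088 for Pdp2. Leaving out each library in turn gave values from -0.0019 to 0.10 for Pdp1, -0.015 to 0.074 for Pdha1, -0.0048 to 0.10 for Pdpr, -0.046 to 0.049 for Pdp2 and -0.13 to 0.045 for Bckdha. Values that did not turn also moved, from 0.045 without KO replicate 3 to 0.33 without WT replicate 1 for Pdk4, 0.0028 without WT replicate 3 to 0.079 without WT replicate 1 for Dlat, and -0.085 without WT replicate 2 to -0.030 without WT replicate 1 for Pdhx. Among the 10 members depth limits Pdk4 most, at 98 to 141 counts a library, and the list genes Ppara, Slc19a3 and Pparg were scarcer, at 46 to 70, 29 to 58 and 8 to 24 counts.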
